A study of Mus musculus with 6 samples.

Results

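The genes examined here encode the proteins of the cytosolic ribosome, and the question was whether chromatin accessibility at them differed between mouse small intestinal organoids given RANKL and control organoids. Members were taken by symbol from the protein-coding genes of GRCm38: Rpl or Rps followed by a digit, Rplp0 to Rplp2 and Rpsa, without the Rps6k kinases. This gave 91 of 21900 protein-coding genes. Reads had been counted in windows of 200 bp, and a gene took the windows that lay nearest to its own start or end and within 5 kb of it, 89 of 55056 windows for 76 of the members. The symbol rule also takes Rps19bp1, which encodes a protein that binds a ribosomal protein, and genes whose symbols mark them as copies, such as Rpl34-ps1, which the annotation lists as protein-coding.

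Accessibility had been measured by ATAC-seq, in which the transposase Tn5 cuts and tags open DNA, in organoids of a single line from a female Lgr5GFPDTR/+ mouse, whose Lgr5 allele carries a GFP and diphtheria toxin receptor reporter in both groups. The RANKL group (n = 3) received 3 µM CHIR99021, a GSK3 inhibitor, with 1.5 mM valproic acid for 3 days, then a day of ENR medium (EGF, Noggin and R-spondin), then 100 ng/ml RANKL for 6 days. RANKL is the TNF family cytokine that drives formation of M cells, the antigen-sampling cells of the gut. The control group (n = 3) was in ENR medium and was also collected at day 6, and the labels name its libraries CVENR without explaining the letters. Whether the controls also had CHIR99021 and valproic acid is thus not stated, and if they had not, those agents and RANKL could not be told apart. Replicates were separate differentiation experiments on the same line, so the spread between them does not cover other animals.

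Ribosomal proteins assemble with ribosomal RNA into a small subunit, which reads the messenger RNA, and a large subunit, which joins the amino acids. Their genes are transcribed in nearly every cell, mostly from compact GC-rich promoters without a TATA box, and their messenger RNAs typically begin with a run of pyrimidines (a terminal oligopyrimidine or TOP sequence) through which the mTOR pathway controls translation. In the gut, crypt progenitors are known for high ribosome production.

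The promoters of 6 members are shown because the 5 tested members with the longest pyrimidine runs at the start are among them, with Rps16 added as the only member called changed for which the reference held a promoter. Each is 120 bases, from 100 before the RefSeq transcription start to 20 from it on (GRCm38.p6). Capitals mark a pyrimidine run at the start that begins with C, and matches on either strand to CCGGAAG (bound by ETS factors such as GABP), GGGCGG (SP1) and TGACGTCA (CRE).
Rps16: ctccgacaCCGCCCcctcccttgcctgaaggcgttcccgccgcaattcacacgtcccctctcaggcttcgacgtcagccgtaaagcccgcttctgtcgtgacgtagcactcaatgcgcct
Rpl27a: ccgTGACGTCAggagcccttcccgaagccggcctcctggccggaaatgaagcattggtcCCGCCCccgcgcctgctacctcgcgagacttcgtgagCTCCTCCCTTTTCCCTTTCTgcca
Rpl13a: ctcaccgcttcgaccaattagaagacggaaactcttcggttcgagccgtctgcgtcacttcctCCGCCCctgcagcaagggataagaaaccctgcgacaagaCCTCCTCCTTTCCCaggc
Rpl14: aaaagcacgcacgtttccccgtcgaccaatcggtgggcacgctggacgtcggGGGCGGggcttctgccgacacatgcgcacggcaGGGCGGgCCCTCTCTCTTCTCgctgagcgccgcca
Rps10: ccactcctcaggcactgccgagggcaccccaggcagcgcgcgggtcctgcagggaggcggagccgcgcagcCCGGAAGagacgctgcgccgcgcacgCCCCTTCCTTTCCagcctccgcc
Rps12: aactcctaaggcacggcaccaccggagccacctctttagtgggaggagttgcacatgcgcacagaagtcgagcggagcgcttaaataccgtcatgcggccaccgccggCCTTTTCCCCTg
The positions are Rps16 at chr7:28350589-28350708 (plus strand), Rpl27a at chr7:109519095-109519214 (plus strand), Rpl13a at chr7:45128726-45128845 (minus strand), Rpl14 at chr9:120571417-120571536 (plus strand), Rps10 at chr17:27635225-27635344 (minus strand), Rps12 at chr10:23787190-23787309 (minus strand). The windows counted for these genes overlapped the printed bases except that of Rpl13a, centred 263 bp upstream of the start, and the second window of Rpl14, centred 5752 bp downstream of it. In Rpl27a the run was 20 bases long. No such run was found at the annotated start of Rps16, although an annotated start can lie some bases from the one used.

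Of the 91 members, 70 had a promoter in the RefSeq table, and for each gene the first listed entry was read. A run of 5 or more pyrimidines that began with C and touched bases -5 to +10 was found in 25 of 70 members (35.7%) and in 22.7% of all 17492 protein-coding promoters of the same length. CCGGAAG was found in 25 of 70 members (35.7%) and 11.9% of all promoters, and GGGCGG in 57.1% and 46.3%. AAGATGGC (YY1) and TGACGTCA (CRE) were each found in 7.14% of members, against 3.22% and 2.34% of all promoters. The TATA box letters TATAAA were found in 11.4% and 13.3%, CACGTG (E-box) in 7.14% and 7.90%, and the palindromic NRF1 site in 1.43% and 1.32%. A 10-base form of the NF-kB site was found in 0 of 70 members and 0.389% of all promoters. Both strands were searched, matches of different motifs could overlap, and a match describes the letters in this window and not binding. Median GC content was 57.0% in members and 56.3% in all promoters. Members with and without the pyrimidine run had median log2 fold changes (RANKL over control) of 0.18 (17 tested) and 0.16 (34 tested), and members with and without CCGGAAG had 0.17 in both cases (18 and 33 tested). Members with GGGCGG had 0.31 (31 tested) and those without it 0.01 (20 tested). These medians are descriptions, and the differences between them were not tested.

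The windows of ribosomal protein genes sat tightly over their starts. A gene end was at most 1 kb away from 73 of the 89 windows (82.0%), against 64.4% of all 15949 windows within 5 kb, and the median distance from window centre to gene end was 71 bp against 301 bp. Of the 65 windows whose gene had an annotated start, 53 (81.5%) were centred within 500 bp of it, against 58.1% for all genes, and 44 of these 53 (83.0%) were centred upstream of it, against 74.1% for all genes. The median position of these windows was 44 bp upstream, against 42 bp for all genes. Most members had a single window: 63 had 1 and 13 had 2. In all, 68 windows were centred outside the gene body and 21 inside it. How reads with several matches were placed is not given in the sources used here, and these genes have many processed copies, so reads shared with a copy cannot be told apart from the gene's own.

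**Figure D1:**
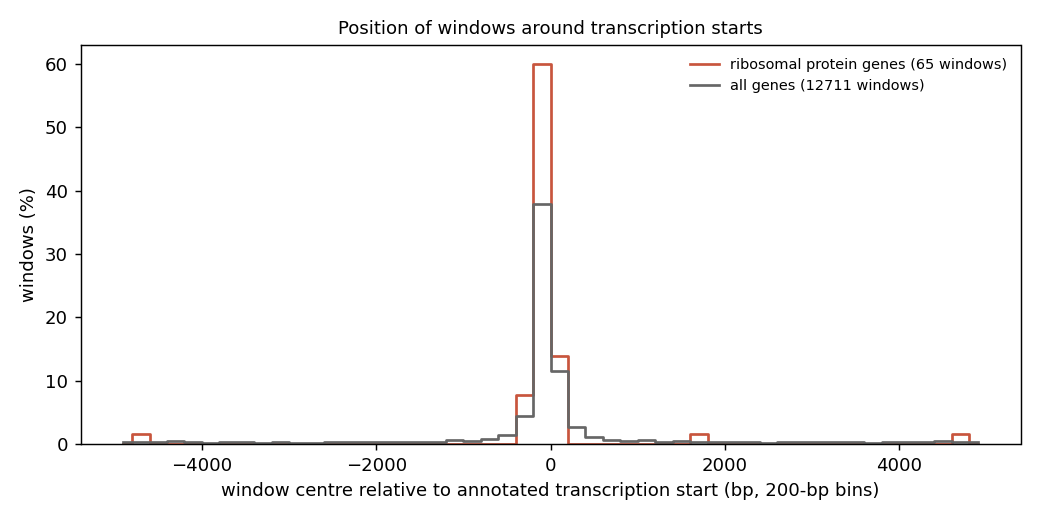
Share of windows (vertical axis, %) by the distance of the window centre from the annotated transcription start (horizontal axis, bp), for the 65 windows of ribosomal protein genes and for all 12711 windows within 5 kb of a gene end whose gene has an annotated start. Shares are of all such windows, also those farther than 5 kb from the start, which lie outside the axis (9 windows of ribosomal protein genes). Both distributions peak in the bin just upstream of the start, with 39 of the 65 windows of ribosomal protein genes and 37.8% of all windows.

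Accessibility of the tested members was ordinary and not at the top of the genome. Levels are given in CPM, counts scaled to a common total, here of the counts in tested genes after TMM normalization. The tested members had a median mean level of 78.2 CPM, with a range of 33.9 to 209.3, against a median of 86.5 CPM for all 10043 tested genes. The median member stood at percentile 43.4 of all tested genes, and the highest, Rps19, stood at percentile 94.9. Windows centred within 500 bp of a start had a median of 45.6 CPM of all tested windows in members and 47.9 CPM over all genes (53 and 7389 windows). These levels are sums over windows of fixed width and differ from gene to gene with the number of windows. They cover tested members only, without those whose nearest window was given to another gene. For 9 such members a window within 1 kb held 123 to 424 counts over the 6 libraries, beside 390 for Rps19.

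Libraries held 322173 to 976881 counts, of which 165555 to 473267 lay within 5 kb of gene ends and 1093 to 2816 in the windows of these genes, and 3 counts were worth 6.67 to 19.1 CPM. Of 12 markers of intestinal epithelium (Epcam, Cdh1, Vil1, Cdx2 and others) all had a window, and none of the 11 tested was called (edgeR, 2 with an unadjusted p under 0.05; DESeq2 also called 0). Of 10 haematopoietic markers 7, among them Ptprc, had no window within 5 kb, and their summed level was 73.3 to 118.3 CPM in control and 104.5 to 134.0 in RANKL libraries. The mesenchymal markers summed to 104.1 to 173.3 and 159.0 to 199.3 CPM, with Pdgfrb called higher (9.89, 6.67 and 0 CPM in control and 38.3, 59.1 and 63.9 CPM in RANKL replicates). Acta2, the other mesenchymal marker tested, had means of 53.2 ± 9.24 and 41.7 ± 8.93 CPM (SD, n = 3 each) and was not called. Endothelial markers summed to 184.6 to 197.7 and 134.0 to 153.3 CPM, and neural markers to 71.7 to 89.9 and 45.4 to 61.3 CPM. M cell markers summed to 648.4 to 741.4 CPM in control and 948.2 to 1054 CPM in RANKL libraries. Of the 8 tested M cell markers edgeR called H2-M2 (log2 fold change 4.27) and Marcksl1 (1.41) higher and Ccl20 (-1.06) lower. That is 37.5%, beside 8.81% of all genes tested, and DESeq2 called 2 higher and 0 lower. H2-M2 alone went from a mean of 4.78 to one of 116.4 CPM. The groups of Marcksl1 overlapped, with 52.1 CPM in control replicate 3 and 44.7 CPM in RANKL replicate 1. Tnfaip2 (1.22), Tnfrsf11a (0.64), Anxa5 (0.22), Pglyrp1 (0.01) and Clu (-0.17) were not called. Whether these cells had a part in the results below was not tested. In bulk samples a changed share of a cell type and a change within cells cannot be told apart.

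Most ribosomal protein genes had no called change with RANKL. Of 71 members deep enough to test, 2 were called higher, 2 lower and 67 were not called (edgeR, quasi-likelihood fit over all 10043 genes, Benjamini-Hochberg threshold 0.05, n = 3 per group). That is 5.63% of the members, beside 8.81% of all genes tested (3.82% higher and 4.99% lower). An unadjusted p under 0.05 was reached by 9 members (12.7%), beside 23.5% of all genes. The median log2 fold change was 0.16 over members and 0.01 over all genes tested. Positive values were found for 42 members and negative ones for 29, so 59.2% were positive beside 50.7% of all genes. Without control replicate 2, control replicate 3 or RANKL replicate 1 the median of members was 0.045, 0.082 or 0.061. DESeq2 called 0 members (5 with an unadjusted p under 0.05), beside 1.93% of all genes (1.05% higher and 0.879% lower). Those percentages are for adjusted p. The share of all genes with an unadjusted p under 0.05 in DESeq2 is not given, here or for the lists below. Windows within 1 kb alone gave the same 4 calls, beside 6.4% of all genes (2.7% higher, 3.7% lower). Windows within 50 kb gave 4 higher and 2 lower, beside 15.3% (7.02% higher, 8.3% lower). The calls added at 50 kb were Rpl10l, with no window of its own within 5 kb, and Rpl3 (named after its value was seen). With the library sizes of all windows 2 members were higher and 1 lower, beside 9.19% (5.7% higher, 3.49% lower). Of genes at or above the members' median level 10.1% were called, and of those below it 7.18%. In 6 members all RANKL libraries lay above all controls and in 7 all lay below (8.45% and 9.86%), beside 12.0% and 13.8% of all genes tested.

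**Figure D2:**
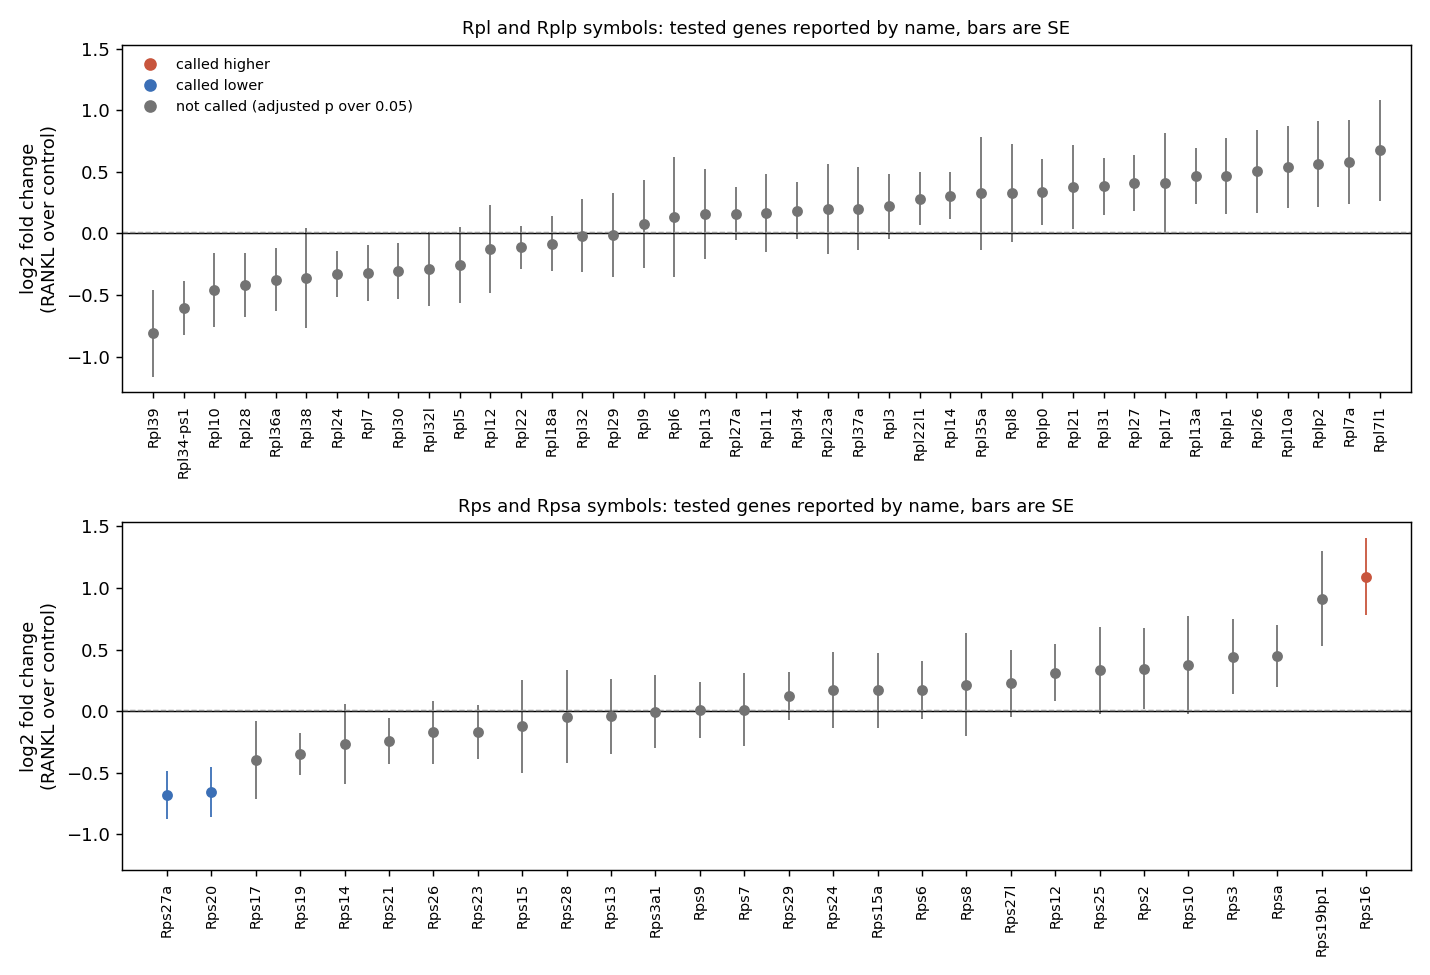
Log2 fold change of RANKL over control with its SE (vertical axes) for tested members reported by name, ordered by value, with Rpl and Rplp symbols above and Rps and Rpsa symbols below. Most members lie within 0.5 of 0; Rps16 was called higher, Rps27a and Rps20 lower, and the dashed line marks the median of all tested genes.

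Single genes were measured with limited precision, and its part in the number of calls was not tested. The SE of the log2 fold change was 0.17 to 0.49 over members, with a median of 0.30, beside 0.28 over all tested genes. In 46 of the 71 members (64.8%) the 95% interval of the log2 fold change lay wholly between -1 and 1, so that a 2-fold change in either direction was outside it, beside 62.1% of all tested genes. In the other 25 members the interval reached a 2-fold change or went beyond it, and there a change of that size was not outside the interval at this depth.

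Rps16, which encodes a protein of the small subunit, had the largest rise among the members. Its gene lies on chromosome 7 at 28350689 to 28352698, and its single window was centred 104 bp upstream of the annotated start, so that it reached the promoter printed above. Rps16 had 64.3, 42.2 and 33.1 CPM in control replicates 1, 2 and 3 and 82.9, 99.9 and 117.6 CPM in RANKL replicates 1, 2 and 3. Every RANKL library was above every control. Mean levels were 46.5 ± 16.0 and 100.1 ± 17.3 CPM (SD, n = 3 each), and Rps16 rose 2.13-fold (log2 scale 1.09, SE 0.31, edgeR adjusted p = 0.0109). It was no longer called when control replicate 2 (adjusted p = 0.0735) or RANKL replicate 3 (0.143) was left out, with DESeq2 (0.104), after thinning to the total of the shallowest library (0.115), or in 2-kb counts (0.0819, and 0.125 with loess offsets). Over its 18 alternatives the adjusted p was 0.00597 to 0.143, and the log2 fold change 0.53 to 1.39, with the lowest values in 2-kb counts (0.58, and 0.53 with loess offsets).

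Rpl13a, a large subunit gene on chromosome 7 at 45125563 to 45128745, was chosen here after its values were seen. Rpl13a had 103.8, 86.7 and 99.4 CPM in the controls and 146.7, 109.0 and 140.6 CPM with RANKL, all RANKL libraries above all controls. Its log2 fold change of 0.46 ± 0.23 (SE) did not pass the test (edgeR adjusted p = 0.196). Rpl13a was called in 0 of 18 alternatives (edgeR or DESeq2 adjusted p 0.126 to 0.738), with log2 fold changes of 0.18 to 0.57.

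Rps27a and Rps20 were the members called lower. Rps27a encodes a fusion of ubiquitin and a small subunit protein, and lies on chromosome 11 at 29545842 to 29548040. Its levels were 170.5, 191.1 and 231.9 CPM in control and 95.7, 99.9 and 143.1 CPM in RANKL replicates 1, 2 and 3. Every RANKL library was below every control, with means of 197.8 ± 31.2 and 112.9 ± 26.2 CPM (SD, n = 3 each). On the log2 scale Rps27a changed by -0.68 (SE 0.20, edgeR adjusted p = 0.0125). The window lay 159 bp outside a gene end of Rps27a and 249 bp from an end of the neighbouring gene Clhc1, so it cannot be given to either gene alone. Leaving out control replicate 3 (adjusted p = 0.0619) or RANKL replicate 2 (0.0943) took Rps27a past the threshold, as did DESeq2 (0.126). In 2-kb counts Rps27a had a log2 fold change of -0.81 ± 0.15 (SE) and an adjusted p of 8.581e-06, the smallest of 18 alternatives.

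Rps20, a small subunit gene on chromosome 4 at 3831584 to 3835655, had 168.0, 180.0 and 194.0 CPM in control and 76.5, 145.4 and 109.9 CPM in RANKL replicates 1, 2 and 3. The groups did not overlap, but the RANKL libraries differed from each other more than the controls did. Means were 180.7 ± 13.0 and 110.6 ± 34.4 CPM (SD, n = 3 each), and Rps20 changed by -0.66 on the log2 scale (SE 0.20, edgeR adjusted p = 0.0208). Without control replicate 2, control replicate 3, RANKL replicate 1 or RANKL replicate 3 the adjusted p was 0.0738, 0.0559, 0.0979 or 0.138. It was 0.178 with DESeq2, 0.117 after thinning and 0.0578 with the library sizes of all windows, and as low as 0.00177 in 2-kb counts.

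**Figure D3:**
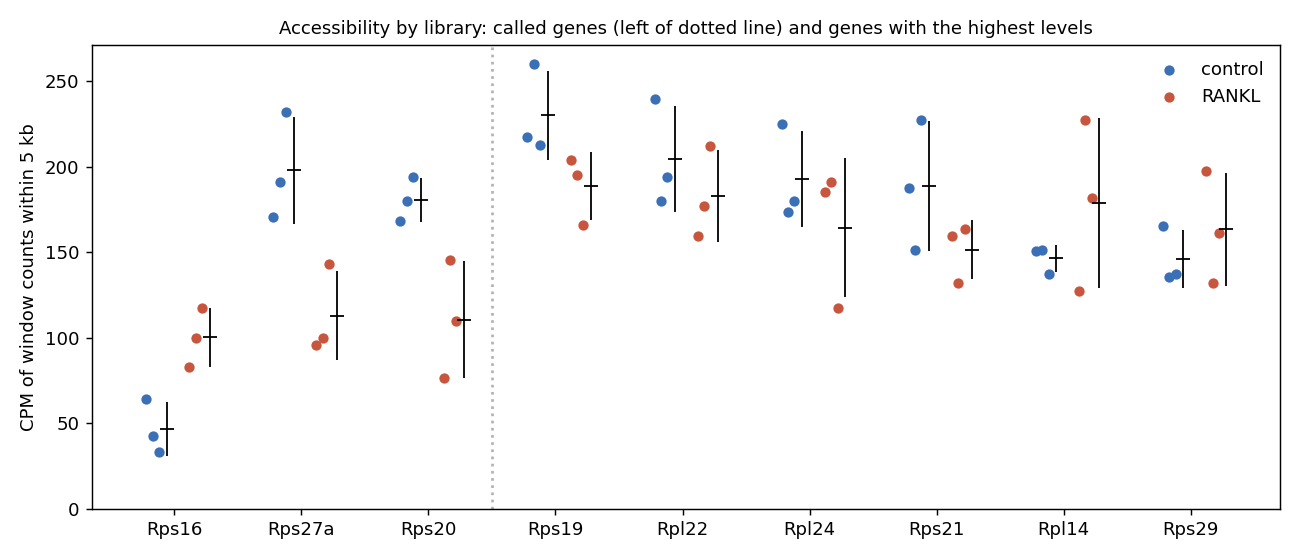
CPM of window counts within 5 kb (vertical axis) for each library of the called genes Rps16, Rps27a and Rps20, left of the dotted line, and of Rps19, Rpl22, Rpl24, Rps21, Rpl14 and Rps29, which are among the 8 members with the highest levels. Points are libraries and black bars the mean ± SD of 3; the groups do not overlap in Rps16, Rps27a, Rps20 and Rps19.

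Of the 8 members with the highest accessibility Rps27a alone was called. Rps19, a small subunit gene known for its mutations in Diamond-Blackfan anaemia, had 217.5, 260.0 and 213.0 CPM in control and 204.1, 195.3 and 166.1 CPM in RANKL replicates. All RANKL libraries were below the controls, by a narrow margin, and the log2 fold change of -0.35 ± 0.17 (SE) did not pass the test (edgeR adjusted p = 0.192). Also among the 8 highest, Rpl22, Rpl24, Rps21, Rpl14 and Rps29 had log2 fold changes between -0.33 and 0.31, with overlapping groups and none called. Rpl14, Rpl22, Rpl24 and Rps19 had 2 windows each, and none of the 7 windows tested of these 4 was called at 200 bp.

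Rpl39 had the lowest log2 fold change of the members but did not pass the test. It encodes a small protein at the exit tunnel of the large subunit and lies on the X chromosome. Rpl39 had 86.5, 62.2 and 80.5 CPM in control and 25.5, 27.3 and 61.3 CPM in RANKL replicates. The third RANKL library was just below the lowest control, so the groups did not overlap, and the log2 fold change was -0.81 ± 0.35 (SE, edgeR adjusted p = 0.130). Rpl34-ps1 had -0.60 (adjusted p = 0.0601), Rpl10 -0.46 and Rpl28 -0.42. Rpl34-ps1 was called lower in 4 of 18 alternatives, with an adjusted p of 0.0291 to 0.303.

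At the upper end stood Rps19bp1, with 47.0, 31.1 and 23.7 CPM in control and 38.3, 50.0 and 94.6 CPM in RANKL replicates. Its groups overlapped, and 1 RANKL library was well above the others. The log2 fold change was 0.91 ± 0.39 (SE, edgeR adjusted p = 0.117). Rpl7l1, a paralog of Rpl7 that acts in ribosome assembly, had 0.68, Rpl7a 0.58 and Rplp2 0.56, each with an adjusted p over 0.3.

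The genes of the ribosomal stalk, which recruits translation factors to the large subunit, had positive values without a call. Rplp0, the stalk base, had 84.0, 68.9 and 99.4 CPM in control and 108.4, 95.4 and 104.8 CPM in RANKL replicates, a log2 fold change of 0.33 ± 0.27 (SE). Rplp1 had 0.47 ± 0.31 and Rplp2 0.56 ± 0.35, and their intervals of -0.14 to 1.07 and -0.12 to 1.25 included both no change and a 2-fold rise. Rpsa, which doubles as a laminin receptor, had 0.45 ± 0.25, Rps3, with a further role in DNA repair, had 0.44 ± 0.31, and Rps6, the ribosomal target of S6 kinase, had 0.17 ± 0.23 (log2 fold change, SE, none called). Rack1, a small subunit scaffold outside the symbol rule, had -0.17 (edgeR adjusted p = 0.789).

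Paralogs were of both kinds, accessible and without a window. Rpl22l1, a paralog of Rpl22, had means of 116.1 ± 8.5 CPM (control) and 133.5 ± 22.5 CPM (RANKL; SD, n = 3 each), and Rps27l, a p53 target, had 88.6 ± 25.7 and 96.4 ± 10.5 CPM, neither called. Rpl10l and Rpl39l, known from the testis, and Rpl3l, known from striated muscle, had no window of their own within 5 kb. The nearest window to Rpl39l lay 17928 bp away and that to Rpl10l 6927 bp away, with 13 counts over all libraries. That at 415 bp from Rpl3l was nearer to Msrb1.

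Of the 15 members without a window, 11 had a window within 5 kb that was nearer to another gene, 9 of them within 1 kb. Rps18, Rpl36al and Rps27, for example, lay 145, 61 and 45 bp from windows given to Vps52, Mgat2 and Rab13. These members were not read as closed, since the rule gives a window to a single gene even where another lies close by. A further 5 members had a window with too few counts to test: Rpl4, Rpl19, Rpl23, Rps4x and Rps23rg1, with 25 to 63 counts over the 6 libraries (names given after their values were seen). In 8 members the window lay within 1 kb of an end of another protein-coding gene.

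By symbol, the 41 tested large subunit genes had a median log2 fold change of 0.17 with none called (edgeR), and the 30 small subunit genes had 0.07 with all 4 calls. Over all genes tested 8.81% were called. Sorting by symbol places Rps19bp1 with the small subunit. The quartiles were -0.26 and 0.37 for the large and -0.17 and 0.33 for the small subunit. This difference between subunits was not tested.

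Tested one by one, 75 windows of the members were deep enough. Of these, 3 were called higher, among them Rps16 and Rps19bp1, and 2 lower, at Rps27a and Rps20, which is 6.67% beside 20.1% of all 21618 windows tested (edgeR adjusted p, same threshold) and 12.1% of the 8178 tested windows within 1 kb of a gene end. The Rps16 window, at chromosome 7, 28350485 to 28350684, had a log2 fold change of 1.21 and an adjusted p of 0.000999. The Rps19bp1 window was called here (1.03, adjusted p = 0.0363) although the same counts were not called among gene sums. Near gene ends (within 1 kb) the median log2 fold change was 0.28 over 66 windows of the members and 0.15 over all 8178. Of these windows 71.2% and 63.2% had values above 0, so such values were common near gene starts and ends generally.

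The members' windows together held 0.302%, 0.288% and 0.296% of all window counts in control and 0.339%, 0.305% and 0.315% in RANKL replicates 1, 2 and 3. Every RANKL library was above every control, with means of 0.295 ± 0.007% and 0.320 ± 0.017% (SD, n = 3 per group). A two-sided exact permutation test gave p = 0.1, the smallest that 3 against 3 can give. The share of counts in all windows within 1 kb of gene ends was 37.8 ± 1.5% in control and 39.8 ± 1.2% in RANKL libraries (SD, n = 3 per group, exact permutation p = 0.2). Within those counts near gene ends the members' share was 0.676 ± 0.044% and 0.703 ± 0.033% (SD, n = 3 per group), with overlapping groups (exact permutation p = 0.4).

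The picture changed with the width over which reads were counted. Counts in 2 kb around the same centres were recovered from the score table that the authors deposited. In 2-kb counts 76 members could be tested, of which 1 was called higher and 7 lower, among them Rps27a, Rpl30, Rps20, Rpl34-ps1, Rps23 and Rpl7 (edgeR, some named after their values were seen). That is 10.5% of members, beside 16.3% of 12808 genes tested in the same way (6.29% higher and 10.0% lower). With loess offsets 1 was higher and 5 lower, beside 14.4% (6.81% higher, 7.57% lower), and among single 2-kb windows 0 of 89 were higher and 9 lower (edgeR, 17 with an unadjusted p under 0.05), beside 8.37% and 10.2%, while loess offsets gave 2 higher and 3 lower. Both genes called lower at 200 bp, and 1 of the 2 called higher, were called again. Rpl30, a large subunit gene, had a log2 fold change of -0.30 in 200 bp and -0.77 ± 0.17 (SE) in 2 kb, where its counts were 133, 149 and 94 in control and 39, 38 and 98 in RANKL replicates. Those are 135.8 ± 24.4 and 79.8 ± 17.9 CPM of 2-kb counts (SD, n = 3 per group), without overlap. Rps23, of the small subunit, went from 134.2 ± 6.0 to 96.6 ± 13.0 CPM of 2-kb counts (SD, n = 3 each), or -0.57 on the log2 scale. The members' share of all 2-kb counts was 0.289 ± 0.006% in control and 0.274 ± 0.011% in RANKL libraries (SD, n = 3 per group, exact permutation p = 0.2), the opposite direction to that of the 200-bp counts.

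**Figure D4:**
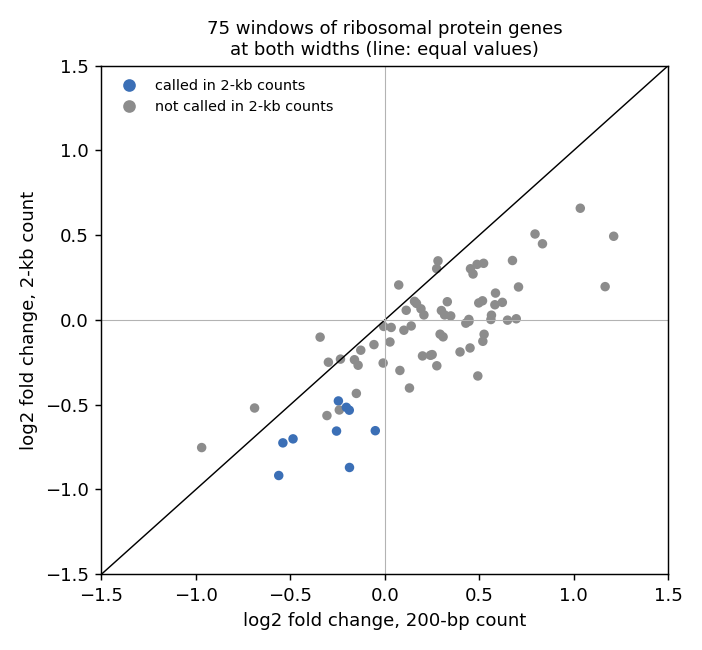
Log2 fold change of RANKL over control in 200-bp counts (horizontal axis) and 2-kb counts (vertical axis) for the 75 windows of ribosomal protein genes tested at both widths, with blue for those called in 2-kb counts. Of these windows 67 lie below the line of equal values.

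Lower 2-kb values were also found at other windows. The 2-kb value was the lower one in 67 of 75 windows of the members (89.3%), with a median difference of -0.31, beside 87.0% and -0.28 over 8178 windows within 1 kb of a gene end and 73.4% and -0.20 over all 21617 windows tested at both widths. The central 200 bp held 42.4%, 40.7% and 40.6% of their 2-kb counts in control and 43.7%, 39.7% and 41.0% in RANKL replicates, with overlapping groups (exact permutation p = 0.8, n = 3 per group). At windows over 1 kb from any gene end the same share was 41.3 ± 0.7% in control and 33.8 ± 1.5% in RANKL libraries (SD, n = 3 per group, exact permutation p = 0.1). The members' share minus that of those distal windows was -0.09 ± 0.35 percentage points in control and 7.61 ± 1.39 in RANKL libraries (SD, n = 3 per group), higher in every RANKL library than in every control, with the smallest exact permutation p possible, 0.1. Against all windows within 1 kb of a gene end the difference was 2.32 ± 0.95 and 3.27 ± 0.81 points (SD, n = 3 per group, exact permutation p = 0.3), with overlap. Library sizes in the 2-kb table include the distal counts, and their part in the members' 2-kb values was not tested.

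**Figure D5:**
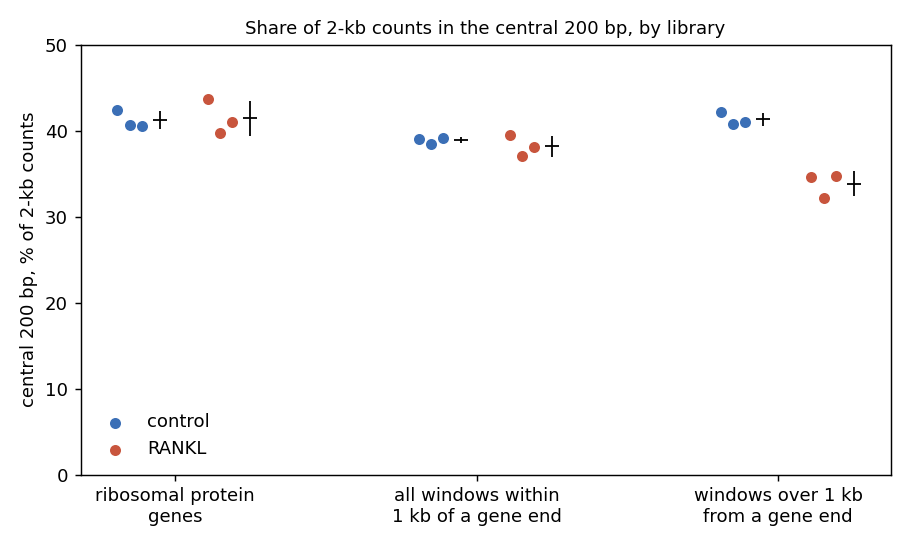
Share of 2-kb counts that lie in the central 200 bp (vertical axis, %) for the windows of ribosomal protein genes, all windows within 1 kb of a gene end and windows farther away. Points are libraries and bars the mean ± SD of 3. Control and RANKL libraries overlap at ribosomal protein genes and at all windows within 1 kb of a gene end, and lie apart at distal windows.

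Other genes of translation were mostly not called either. Initiation factor genes were taken by symbol, as Eif followed by a digit. That list also holds the kinase gene Eif2ak2, and Eif4ebp1, which is counted again in the mTOR list below. Of its 45 tested genes 1 was higher and 2 lower (edgeR), with a median log2 fold change of -0.00. DESeq2 called 0 (8 with an unadjusted p under 0.05). Eif3k, a subunit of the initiation complex that binds the small subunit, rose by 0.88 on the log2 scale, with means of 70.6 ± 5.7 and 131.9 ± 31.2 CPM (SD, n = 3 each), while Eif3e, of the same complex, fell by 0.76 on the log2 scale, from 149.4 ± 11.3 to 86.8 ± 4.4 CPM. The other member that fell was Eif2ak2, the double-stranded RNA sensor kinase PKR (chosen after its value was seen). None of 7 elongation and termination factor genes was called by edgeR, and DESeq2 also called 0. An unadjusted p under 0.05 was reached by 4 of the 7 with edgeR, beside 23.5% of all genes, and by 4 genes with DESeq2. Eef1a1, which delivers aminoacyl-tRNA, had -0.56 with an edgeR adjusted p of 0.0555.

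Mitochondrial ribosomal protein genes, which serve the separate ribosome of the organelle, gave 2 higher and 1 lower of 53 tested (edgeR; with DESeq2 1 higher and 0 lower, 7 with an unadjusted p under 0.05), with a median log2 fold change of 0.01. Mrpl45 rose by 1.11 and Mrpl54 by 0.78 (the latter chosen after its value was seen), and Mrpl15 fell by 0.57 on the log2 scale. Ribosome assembly genes had none called of 33 tested (edgeR, 5 with an unadjusted p under 0.05; DESeq2 also called 0), and a median of -0.02, with Wdr43 at -0.52 and Riok2 at -0.45. RNA polymerase I and its factors, which make ribosomal RNA, had none called of 11 (edgeR, 1 with an unadjusted p under 0.05; DESeq2 also called 0) and a median of 0.21, with Ubtf at 0.59 and Taf1d at -0.34.

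Regulators of ribosomal protein genes were the last group. Of 17 genes of the mTOR pathway and regulators of TOP messenger RNAs 1 was called by edgeR and 0 by DESeq2 (2 with an unadjusted p under 0.05). The called gene was Rps6kb1, which encodes the S6 kinase that acts on Rps6. Means were 79.3 ± 5.45 and 137.3 ± 15.2 CPM (SD, n = 3 each), and Rps6kb1 rose by 0.76 on the log2 scale (edgeR adjusted p = 0.0286). The median of this list was 0.25, and 14 of 17 values were positive. Eif4ebp1, the translation repressor that mTOR inactivates, had -0.57 (edgeR adjusted p = 0.101). Among 15 transcription factors known at these promoters 1 was called by edgeR, and 1 by DESeq2. The edgeR call was Mxd1, which encodes an antagonist of Myc: its levels were 106.3, 120.0 and 175.1 CPM in control and 267.9, 304.4 and 184.0 CPM in RANKL replicates, a log2 fold change of 0.92 ± 0.18 (SE). All RANKL libraries were above the controls, the third by a small margin. Sp3 had 0.61 (edgeR adjusted p = 0.0578). The share of called genes in each of these 7 lists was 0% to 6.67%, beside 8.81% of all genes.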

How the data were processed

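ATAC-seq libraries of 3 RANKL and 3 control organoid cultures (50000 cells each, 38-bp reads, per the labels' protocols) were compared. The authors deposited whole-number counts, not normalized, for 55056 windows (200 bp each), and a score for 2-kb windows at 55050 of those centres. From its values the score was taken to be ln(count + 1), standardized within each library; undoing this gave counts within 0.00600 of a whole number. Per the submitters' processing notes, fastp 0.20.1, BWA 0.7.17, Picard, MACS2 2.2.7, DESeq2 1.34.0, mm10 and GRCm38 were used, without roles; no source used here gives window choice, Tn5 shifting or duplicate removal.

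Each window went to the nearest end of a protein-coding RefSeq gene (GRCm38.p6). Sums within 5 kb were tested over all genes in edgeR (version 4.0.16, R 4.3.3; normalization by TMM, factors 0.987 to 1.01; filterByExpr; robust quasi-likelihood fit, no covariates, Benjamini-Hochberg adjustment, threshold 0.05), with SEs derived from the fold change and its F statistic. Single values per library had exact permutation tests. DESeq2 1.42.0 (local dispersion trend where the parametric one could not be fitted) was an alternative, with the normalizations, filters, distances, thinning, blocks and left-out libraries of the closing section. The fits were tested on simulated data. Members and lists were chosen with earlier results of these data known. Named members were those called, the 8 highest, the 4 largest values each way among the rest, 4 of the 13 with 2 windows (most counts first), and a fixed set of paralogs, stalk genes, Rpsa, Rps3, Rps6 and Rack1; other lists gave the 2 smallest adjusted p each. Others are marked or given as examples. Some members counted in the totals are not reported here by name, nor drawn in the plots that name genes. Same-numbered libraries, which the labels call the same experiment, had deviations with Pearson correlations of -0.05, 0.00 and -0.03 in gene sums. No molecular identifiers are named, so reads copied from the same fragment may have been counted more than once. The SEs come from the quasi-likelihood fit across libraries, and so cover the spread between libraries as well as counting error.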

Additional observations from a re-analysis of the deposited data

How the results depend on the processing

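In gene sums, 2 members were higher and 2 lower with edgeR. DESeq2 called 0 and 0 (5 with an unadjusted p under 0.05), the replicate block gave 1 higher and 2 lower, thinning to the shallowest library 0 and 1 (7 with an unadjusted p under 0.05, 51 members tested), windows within 50 kb 4 higher, and library sizes of all windows 1 lower with a member median of 0.25 (0.09 over all genes). In 2-kb counts 1 member was higher and 7 lower (median 0.044), and with loess offsets 1 and 5 (median 0.035). Leaving out each library in turn gave 0 to 2 higher, 0 to 2 lower and medians of 0.045 to 0.19. Among single windows, with 3 higher and 2 lower, the lower count was 0 without a low-count filter (edgeR, 18 with an unadjusted p under 0.05) and with DESeq2 (2 higher; 9 with an unadjusted p under 0.05) and 1 with the replicate block; thinning gave 1 and 0 (8 with an unadjusted p under 0.05), and 2-kb counts 0 and 9 (17) with a median of -0.044, or 2 and 3 with a median of 0.12 with loess offsets. Leaving out a library gave 2 to 4 higher, 0 to 2 lower and medians of 0.16 to 0.31. The members' share of counts, 0.0244 percentage points higher with RANKL, was -0.0158 in 2-kb counts. Loess with 2-kb counts and library sizes of all windows were chosen after seeing the data. Shares over all genes are not given for the replicate block, thinning or left-out libraries. Nor are shares over all windows given for the alternatives at 200 bp or for loess offsets in 2-kb counts. Calls lost there cannot be told apart from fewer calls over all genes or windows. Counts with an unadjusted p under 0.05 have a share over all genes beside them only for edgeR gene sums in the main fit.

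Of 463 refits of 26 named members 8 changed sign, none of a called gene: Rpl10 (0.017), Rpl22 (0.059), Rpl22l1 (-0.045), Rps19 (0.099) and Rps21 (0.067) in 2-kb counts with loess offsets, Rpl22l1 (-0.095) and Rps29 (-0.12) in 2-kb counts, and Rpl22 (0.032) without control replicate 1 (-0.27 to 0.032 with each library left out). A further 24 lost a call and 5 gained one. The replicate block ended 1 call among gene sums. Counts of 3 are worth 6.67 to 19.1 CPM, which limits the shallower members. The causes were not tested.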
